A study of Anthurium andraeanum with 18 samples.

Results

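The cytosolic ribosomal proteins of Anthurium andraeanum leaves were followed through heat in 2 plant materials, which the sample titles call MH and Ken. The members were chosen by their text descriptions, as assembled genes described as a 40S ribosomal protein, a 60S ribosomal protein or a 60S acidic ribosomal protein. Of 158487 assembled genes, 326 matched, and the 300 with the largest total count over the 18 libraries were kept. The last entry kept, an S28 best matched by a cattle protein, had 29 counts in all, and the first one left out, an L10 matching grapevine, had 28.

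Leaf RNA was sequenced from full-flowering plants held in growth chambers with days and nights of 12 h each. Ken and MH control plants stayed at 25 °C. Ken 38 and MH 38 plants had 3 days at 25 °C and then 3 days at 38 °C by day and 33 °C by night. Ken 40 and MH 40 plants passed through the same steps and then had 3 days at 40 °C by day and 35 °C by night, so both had already lived through the milder heat. Each of the 6 groups held 3 libraries, named biological replicates in the titles and not said to come from different plants, so the tests measure only how much these samples vary. When control plants were sampled is not stated, and what MH and Ken stand for is not stated either, so plant age and material cannot be told apart from the groups.

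A cytosolic ribosome is built of a small 40S and a large 60S subunit, each a core of ribosomal RNA coated with proteins that are mostly present once per particle. The small subunit reads the mRNA, the large one joins amino acids, and a flexible stalk of acidic P proteins on the large subunit recruits the elongation factors. Plants carry several genes for nearly every ribosomal protein, and making ribosomes takes up much of the transcription and translation of growing cells.

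By the species of the best protein match, 209 members matched a plant protein, 80 an animal protein and 11 a fungal protein. The 209 plant-named entries covered 80 ribosomal protein names, 72 entries for the 40S and 137 for the 60S subunit. Only 22 names had a single plant-named entry, while L19 had 10. These entries can be gene copies, alleles or fragments of the same gene, since 94 of them shared an assembly cluster with another plant-named member, and reads that fit more than 1 copy could have been split between them. Plant-named entries had a median total of 16898 counts, and animal-named ones 124, from 29 to 393. After a filter on low counts 256 members were tested, 201 of them plant-named, 53 animal-named and 2 fungus-named, and the other 44 had too few counts. The animal- and fungus-named entries behaved differently from library to library and are described last, so counts of members that changed are given here for the plant-named entries.

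Levels are given as TPM (transcript abundance scaled by gene length and library, as deposited). Changes are log2 fold changes ± SE from an edgeR quasi-likelihood model of all 70022 tested genes, scaled by TMM, and rose, fell, higher and lower mean a Benjamini-Hochberg adjusted p below 0.05 in that test. Libraries held 15845118 to 22867236 counts. The choice of scaling moved every heat response: when counts were scaled by library totals alone, the median change of all genes shifted upwards, by 0.55 in Ken 38 and 0.46 in Ken 40 leaves, and by 0.82 for MH 38 and 0.98 for MH 40 over their control. TPM also sums to nearly the same value in every library, but it is scaled by gene length as well and did not behave like library totals throughout. The plant-named members averaged 19737 TPM in MH 40 and 19159 TPM in MH control, but 1.85% and 1.31% of the counts. A result is therefore called stable here only where the call was the same under 4 scalings (TMM, relative log expression, library totals, and TMM of described genes). Against control, and in the differences of responses between materials, every other scaling moved the median of all genes upwards from TMM. A rise called under TMM could thus hardly lose its call there, and stability is mainly a check of falls. The libraries of MH 38 did not form an even group. Replicate 3 held 20579 TPM of light-harvesting proteins, the markers of green leaf, against 1514 and 813 TPM in the other MH 38 libraries, and its correlation with another library of its group was as low as 0.8651, against at least 0.9342 in the other 5 groups. In bulk leaf RNA, fewer cells of a type and less RNA per cell cannot be told apart.

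The plant-named entries together took up a larger share of the leaf transcriptome in Ken than in MH at 25 °C and at 40/35 °C, but not in every library at 38/33 °C. Their summed level was 20279, 18701 and 18496 TPM in the MH control libraries, 20959, 21713 and 28423 TPM in MH 38, and 16763, 20476 and 21973 TPM in MH 40. In Ken it was 27493, 23417 and 26947 TPM in control leaves, 26065, 25320 and 26269 TPM at 38/33 °C, and 27429, 31380 and 30839 TPM at 40/35 °C. All MH control libraries lay below all Ken control libraries, and all MH 40 libraries below all Ken 40 libraries. At 38/33 °C the materials overlapped, since MH 38 replicate 3 was above every Ken 38 library, and as a share of counts the entries made up 1.92 ± 0.244% in MH 38 and 1.93 ± 0.0634% in Ken 38 (SD, n = 3 each). On average the summed level was 19159 ± 975 TPM in MH control and 25952 ± 2212 TPM in Ken control (SD, n = 3 each). In TPM all MH 38 libraries were above all MH control libraries, with replicate 3 far above the others, while MH 40 and MH control overlapped. In Ken both heated groups overlapped with the controls in TPM, and all Ken 40 libraries were above all Ken 38 libraries. As a share of counts, however, all MH 40 libraries, at 1.61, 1.91 and 2.03%, were above all MH control libraries, at 1.38, 1.27 and 1.28%. All Ken 40 libraries, at 2.11, 2.36 and 2.29%, were above all Ken control libraries, at 1.88, 1.58 and 1.86%. Ken 38 and Ken control overlapped in that share too.

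**Figure D1:**
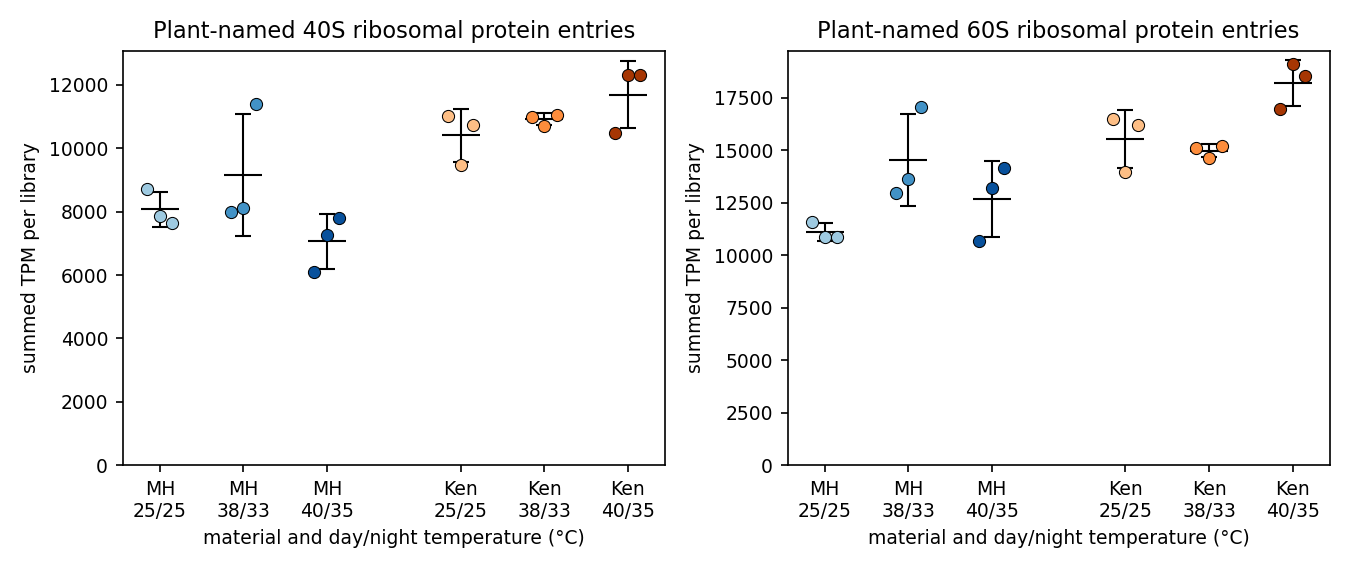
Summed TPM of the plant-named 40S (left) and 60S (right) entries in each of the 18 libraries (points) with group mean ± SD (n = 3), by material and temperature. For both subunits the MH control libraries, at 7645 to 8703 TPM and 10847 to 11575 TPM, lie below all Ken control libraries, and replicate 3 of MH 38 stands above its group at 11386 and 17037 TPM.

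Single entries moved both ways in each heat comparison, more of them down than up on the TMM scale. In Ken 38 against Ken control, 11 of 201 plant-named entries rose and 133 fell, where 20.3% of all tested genes rose and 15.9% fell, and the median change was -0.83. In Ken 40 against Ken control 20 rose and 100 fell, against 25.1% and 20.7% of all genes, with a median of -0.48. In MH 38 against MH control 20 rose and 91 fell, against 30.1% and 17.3% of all genes, with a median of -0.40. In MH 40 against MH control 21 rose and 136 fell, against 42.7% and 24.6% of all genes, with a median of -1.0. The table of all genes holds many short fragments without a description, so described genes with at least 1000 counts in all are a closer background. Among these 18494 genes 40.0%, 40.7%, 41.3% and 54.8% fell in Ken 38, Ken 40, MH 38 and MH 40, and among the 191 plant-named members with at least 1000 counts the shares were 69.1%, 51.8%, 47.6% and 71.2%.

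How much of the family fell depended on the scaling. Calls stable under all 4 scalings were 11 higher and 64 lower in Ken 38, 20 and 48 in Ken 40, 20 and 16 in MH 38, and 21 and 56 in MH 40, each against its own control. With library totals as the scaling the medians were -0.26, -0.01, 0.41 and 0.01, and the MH 38 calls turned to 91 higher and 16 lower. The median thus turned upwards in MH 38 and came close to 0 in Ken 40 and MH 40 with library totals, and in Ken 38 it was below 0 under each of the 4 scalings. The entries called higher under TMM were called higher under all 4 scalings. The other scalings shifted the median of all genes upwards, by 0.04 to 0.98, so this could hardly have come out otherwise. MH 38 rested further on replicate 3: without it 17 plant-named entries rose and 122 fell.

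**Figure D2:**
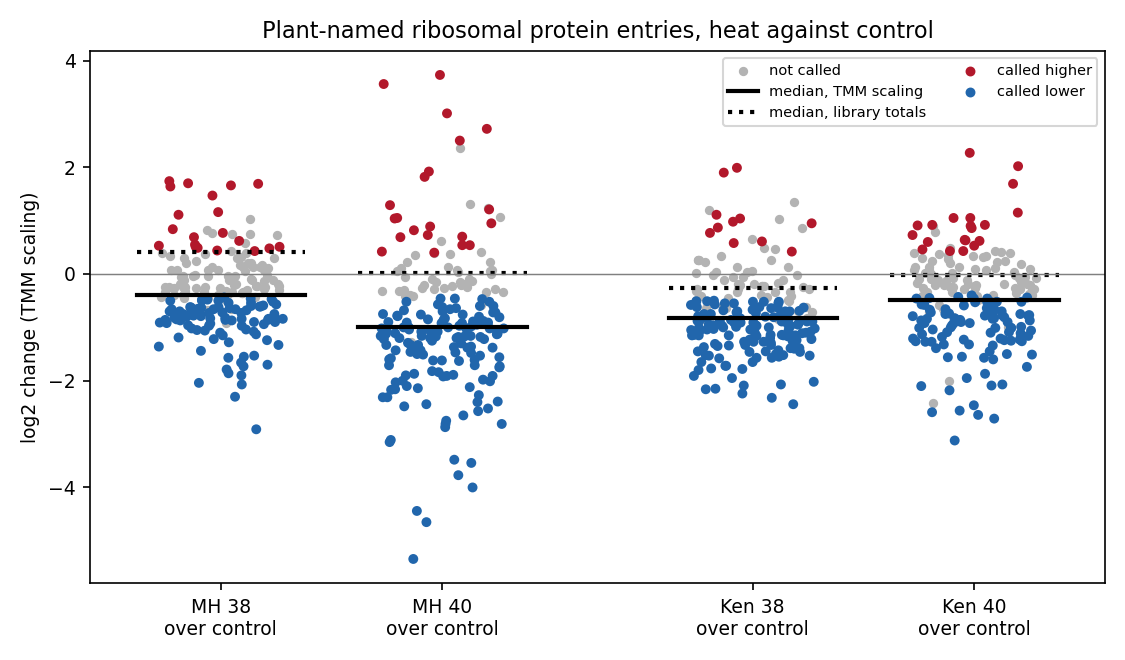
Log2 change on the TMM scale of each tested plant-named entry (points, n = 201) in the 4 heat comparisons, coloured by its call, with solid lines for the TMM median and dotted lines for the median under library totals. Most points lie below 0 in every comparison, with medians of -0.40 in MH 38, -1.0 in MH 40, -0.83 in Ken 38 and -0.48 in Ken 40.

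The entries that rose included the most abundant of the family. L10, a 60S protein that joins the subunit late in its maturation, was the highest of all members (TRINITY_DN62379_c1_g1). It stood at 659, 596 and 672 TPM in Ken control, 1949, 1791 and 1643 TPM in Ken 38, and 1471, 1898 and 1749 TPM in Ken 40. Every heated Ken library was above every control one, and L10 rose by 1.04 ± 0.22 in Ken 38 (adjusted p = 0.000783) and 0.92 ± 0.22 in Ken 40 (adjusted p = 0.00165, edgeR quasi-likelihood test with Benjamini-Hochberg adjustment), stable under all 4 scalings. In MH it stood at 948, 802 and 878 TPM in control leaves, 1448, 1356 and 1860 TPM at 38/33 °C, and 1019, 1527 and 2163 TPM at 40/35 °C. The heated MH libraries were also all above the controls in TPM, but on the TMM scale the changes of 0.21 ± 0.21 and 0.22 ± 0.21 did not pass the test (adjusted p = 0.429 and 0.368, edgeR with Benjamini-Hochberg adjustment).

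L35a-3, a 60S protein (TRINITY_DN44238_c2_g1), rose in both materials and both heat regimes. Its level was 369, 330 and 341 TPM in MH control, 735, 763 and 788 TPM in MH 38, and 884, 1315 and 1380 TPM in MH 40. In Ken it was 299, 254 and 312 TPM in control, 582, 528 and 548 TPM at 38/33 °C, and 967, 853 and 836 TPM at 40/35 °C. The groups did not overlap within either material, and the changes were 0.43 ± 0.16 and 1.05 ± 0.16 in MH 38 and MH 40 and 0.42 ± 0.16 and 1.15 ± 0.16 in Ken 38 and Ken 40 (adjusted p = 0.0315, 9.58e-06, 0.0423 and 5.17e-06, edgeR with Benjamini-Hochberg adjustment), stable under all 4 scalings. With only the MH 38 and MH control libraries in the model, the MH 38 change of 0.52 no longer passed the test.

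S20, a protein of the 40S head, rose through both of its leading entries. The smaller one (TRINITY_DN61877_c2_g2) had 10.2, 5.82 and 7.8 TPM in MH control, 25.4, 26.5 and 41.2 TPM in MH 38, and 52.1, 94.9 and 95.8 TPM in MH 40. In Ken it had 20.2, 19.6 and 19.6 TPM in control, 71.5, 60.1 and 58.3 TPM at 38/33 °C, and 49.3, 66.3 and 54.9 TPM at 40/35 °C. All heated libraries lay above the controls of their material, with changes of 1.16 ± 0.27 and 2.50 ± 0.28 in MH 38 and MH 40, and 1.11 ± 0.27 and 1.05 ± 0.27 in Ken 38 and Ken 40 (adjusted p = 0.00159, 1.18e-07, 0.00213 and 0.00253, edgeR with Benjamini-Hochberg adjustment). The larger entry (TRINITY_DN47933_c0_g1) averaged 273 ± 69.8 TPM in MH 40 against 66.1 ± 9.44 TPM in MH control, and 274 ± 33.7 TPM in Ken 40 against 108 ± 12.3 TPM in Ken control (SD, n = 3 each), and rose in both. It did not pass the test in Ken 38, where its change was 0.05 ± 0.17.

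Other 40S proteins rose in part of the groups. S8 (TRINITY_DN33425_c1_g2) averaged 377 ± 33.4 TPM in Ken 38 against 137 ± 5.85 TPM in Ken control (SD, n = 3 each) and rose by 0.98 ± 0.21. S11 (TRINITY_DN52893_c0_g2) rose by 0.77 ± 0.22 in Ken 38 and by 0.69 ± 0.22 in MH 40. S14, a platform protein near the exit of the mRNA channel (TRINITY_DN45330_c0_g3), rose by 0.61 ± 0.21 in Ken 38 and 0.60 ± 0.21 in Ken 40, but changed by -0.42 ± 0.21 and -0.26 ± 0.21 in MH 38 and MH 40, which did not pass the test. S10, another head protein (TRINITY_DN40103_c0_g2), rose at 40/35 °C in both materials, to 318 ± 70.4 TPM in MH 40, against 112 ± 15 TPM in MH control, and to 283 ± 21.1 TPM in Ken 40, against 143 ± 7.72 TPM in Ken control (SD, n = 3 each). One entry of S5 (TRINITY_DN45601_c1_g1) rose at 40/35 °C by 0.70 ± 0.15 in MH and 0.73 ± 0.15 in Ken. These calls were stable under the 4 scalings.

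Among 60S proteins, L15 (TRINITY_DN46789_c1_g1) reached 526, 773 and 889 TPM in MH 40 against 260, 212 and 227 TPM in MH control, with a change of 0.89 ± 0.17 (adjusted p = 0.000157, edgeR with Benjamini-Hochberg adjustment). In Ken 40 it had 473, 551 and 552 TPM against 305, 252 and 316 TPM in Ken control, a change of 0.43 ± 0.17 (adjusted p = 0.0448, same test). Heated and control libraries of each material did not overlap for L15. L37a (TRINITY_DN50315_c0_g1) rose in MH, by 0.84 ± 0.25 at 38/33 °C and 1.21 ± 0.25 at 40/35 °C, while its changes of 0.23 ± 0.25 and 0.39 ± 0.25 in Ken 38 and Ken 40 did not pass the test, and the difference between the materials did not pass it either.

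The entries with the largest falls were mostly 60S proteins of middle or low abundance. L44 (TRINITY_DN48703_c1_g3) had 18.8, 13.9 and 12.9 TPM in MH 40 against 140, 151 and 158 TPM in MH control, and 39.8, 60.1 and 62.9 TPM in Ken 40 against 180, 173 and 184 TPM in Ken control. All heated libraries were below all controls, and the changes were -4.00 ± 0.35 in MH 40 and -2.09 ± 0.32 in Ken 40 (adjusted p = 1.87e-08 and 3.39e-05, edgeR with Benjamini-Hochberg adjustment). L5, which binds the 5S ribosomal RNA (TRINITY_DN56011_c1_g3), averaged 15.5 ± 3.77 TPM in MH 40 against 59.5 ± 3.31 TPM in MH control, and 18 ± 1.34 TPM in Ken 40 against 86.1 ± 5.28 TPM in Ken control (SD, n = 3 each). Its falls of 2.65 and 2.64 on the log2 scale were of like size in both materials.

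L23a, a protein at the exit of the peptide tunnel (TRINITY_DN48681_c1_g1), also fell in all 4 heat comparisons, by 2.57 in MH 40 and by 2.07 in Ken 40 on the log2 scale. One L34 entry (TRINITY_DN42261_c0_g5) fell to 7.35, 6.79 and 4.11 TPM in MH 40, against 39.2, 45.3 and 31.1 TPM in MH control, and to 24.1, 17.4 and 21.9 TPM in Ken 40, against 49.9, 45.1 and 47.5 TPM in Ken control. Groups did not overlap in either material, and the L34 change was -3.54 ± 0.29 in MH 40 and -1.60 ± 0.26 in Ken 40. L9 (TRINITY_DN56954_c0_g1) fell by 2.87 in MH 40 and 1.32 in Ken 40, L13 (TRINITY_DN50306_c1_g1) by 3.48 and 2.71, and L28 (TRINITY_DN51226_c0_g2) by 2.81 and 2.18. The falls of these single entries of L44, L5, L23a, L34, L9, L13 and L28 at 40/35 °C held under all 4 scalings. The fall of the L28 entry in MH 38 did not.

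The acidic stalk proteins did not move as 1 unit. P1, which pairs with P2 on the stalk (TRINITY_DN51456_c2_g2), had 1698, 1842 and 1735 TPM in Ken 40 against 704, 561 and 660 TPM in Ken control, and 541, 789 and 728 TPM in MH 40 against 327, 277 and 273 TPM in MH control. The heated libraries lay above the controls in both materials, and P1 rose by 1.05 ± 0.15 in Ken 40 and 0.54 ± 0.15 in MH 40 (adjusted p = 6.37e-06 and 0.00331, edgeR with Benjamini-Hochberg adjustment). P2 (TRINITY_DN55971_c1_g3) fell, to 112, 154 and 132 TPM in Ken 40, against 264, 207 and 259 TPM in Ken control, and to 50.7, 54.6 and 59.1 TPM in MH 40, against 127, 126 and 130 TPM in MH control. Its changes were -1.23 ± 0.17 and -1.90 ± 0.17 (adjusted p = 4.24e-06 and 6.09e-09, same test). These are the leading P1 and P2 entries by total count, their heated and control libraries did not overlap, and both calls held under the 4 scalings.

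P0, which anchors the stalk to the 60S subunit (TRINITY_DN52118_c0_g2), had 264, 131 and 132 TPM in MH 40 against 246, 256 and 236 TPM in MH control, a change of -1.33 ± 0.20 on the TMM scale that did not pass the test with library totals. In Ken 40 it had 479, 574 and 446 TPM against 371, 279 and 307 TPM in Ken control, and its change of 0.24 ± 0.20 did not pass. P0 libraries overlapped between MH 40 and MH control only through MH 40 replicate 1, and the difference of the responses at 40/35 °C was -1.57 ± 0.29 (adjusted p = 0.000377, edgeR with Benjamini-Hochberg adjustment). P3, a stalk protein found in plants (TRINITY_DN39854_c0_g2), had 98.6, 121 and 116 TPM in Ken 40 against 55.7, 55.9 and 61.7 TPM in Ken 38, and rose by 1.03 ± 0.16 between these groups, which did not overlap. Its falls in both MH heat groups turned to 0.10 and 0.23 with library totals.

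S27a and L40 are made fused to ubiquitin, which is cut off to leave free ubiquitin and the ribosomal protein. The most abundant S27a entry (TRINITY_DN42680_c0_g2, 257 bases long) had 2306, 1936 and 1881 TPM in MH control, 916, 839 and 2178 TPM in MH 38, and 405, 383 and 357 TPM in MH 40. In Ken it had 1011, 1162 and 972 TPM in control, 1124, 1143 and 1333 TPM at 38/33 °C, and 461, 672 and 720 TPM at 40/35 °C. MH 40 lay far below MH control and Ken 40 below Ken control, with changes of -3.15 ± 0.32 and -1.17 ± 0.30 (adjusted p = 3.51e-07 and 0.00452, edgeR with Benjamini-Hochberg adjustment), and replicate 3 of MH 38 remained at the control level. The second S27a entry (TRINITY_DN53764_c1_g1) fell by 1.02 in MH 40 and 0.78 in Ken 40, but neither call passed with library totals. A small S27a entry (TRINITY_DN60353_c1_g3) moved the other way in Ken 40, at 30.6 ± 3.95 TPM against 7.15 ± 1.23 TPM in Ken control (SD, n = 3 each), and rose by 1.69 ± 0.33. The leading L40 entry (TRINITY_DN42680_c0_g1) fell to 46.3 ± 2.72 TPM in MH 40, against 94.9 ± 5.29 TPM in MH control, and had 121 ± 28.3 TPM in Ken 40 against 130 ± 19.6 TPM in Ken control (SD, n = 3 each). The Ken 40 and Ken control libraries of L40 overlapped in TPM, while the TMM change of -0.87 ± 0.16 passed the test.

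S6 is the protein of the 40S subunit that S6 kinase phosphorylates downstream of the kinase TOR. Its leading entry (TRINITY_DN54329_c1_g1) had 128, 163 and 190 TPM in MH 40 against 204, 207 and 186 TPM in MH control, and 279, 353 and 362 TPM in Ken 40 against 292, 266 and 302 TPM in Ken control. The libraries of S6 overlapped in both materials. On the TMM scale S6 changed by -0.95 ± 0.16 in MH 40 and by -0.49 ± 0.16 in MH 38, and with library totals by 0.04 and 0.33, so its direction in MH was not stable. S3, a 40S head protein at the mRNA entry (TRINITY_DN45841_c0_g1), fell to 210, 170 and 204 TPM in MH 40, against 376, 420 and 383 TPM in MH control, a change of -1.73 ± 0.21 that held under all 4 scalings. Its calls in MH 38, Ken 38 and Ken 40 did not hold under all of them.

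Entries with the same name could move in opposite directions. Of 56 names with at least 2 tested plant-named entries, entries rose and other entries fell for 7 names in Ken 38 and 6 in Ken 40, and for 7 names in MH 38 and 6 in MH 40, each against its own control. Under all 4 scalings the numbers were 4, 4, 1 and 2. L18 and L19 were among these names in each of the 4 comparisons on the TMM scale. In MH 40 L18 had entries that rose by 3.01 ± 0.54 and 0.95 ± 0.17 (TRINITY_DN46012_c0_g2 and TRINITY_DN46012_c0_g3) and entries that fell by 2.27 and 1.98 (TRINITY_DN46012_c0_g1 and TRINITY_DN44122_c1_g1). The entry with the largest rise was minor, at 0.745% of L18 TPM in MH control and 6.5%, or 8.03 TPM, in MH 40 on average. The TRINITY_DN46012_c0 entries share an assembly cluster, and whether reads were split between them was not tested. The L18 entries were named after their values were seen.

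L19, a 60S protein that in other eukaryotes takes part in a bridge to the 40S subunit, changed its make-up in MH. 3 of its 10 entries (TRINITY_DN56086_c1_g1, TRINITY_DN61659_c2_g3 and TRINITY_DN62483_c0_g3) together gave 63.1, 41.5 and 42.7 TPM in MH control, 264, 268 and 86.1 TPM in MH 38, and 490, 730 and 385 TPM in MH 40. That was 12.5 ± 2.3%, 34.6 ± 15.9% and 56.5 ± 9.16% of all L19 TPM in the 3 groups (SD, n = 3 each). All MH 40 libraries were above all MH control libraries, and replicate 3 of MH 38 lay between its group and the controls. In Ken the same entries made up 16.8 ± 1.14% of L19 in control, 11.3 ± 0.783% at 38/33 °C and 12.4 ± 3.96% at 40/35 °C (SD, n = 3 each). The leading L19 entry in Ken (TRINITY_DN49075_c1_g4) held 62 ± 0.628%, 72 ± 0.811% and 76.2 ± 3.76% of L19 TPM over the same order of groups, and in MH 50.3 ± 1.16%, 47.4 ± 8.11% and 33 ± 5.72%.

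The rise of each of these L19 entries in MH 40 passed the test, with changes of 3.73 ± 0.42, 3.56 ± 0.42 and 2.72 ± 0.33 (adjusted p = 1.63e-07, 3.05e-07 and 1.27e-06, edgeR with Benjamini-Hochberg adjustment). For TRINITY_DN56086_c1_g1 and TRINITY_DN62483_c0_g3 the response of MH minus that of Ken was 4.38 ± 0.56 and 3.20 ± 0.45 at 40/35 °C (adjusted p = 7.97e-06 and 4.53e-05, same test). TRINITY_DN61659_c2_g3 was close to 0 in Ken, at 0.04 to 1.63 TPM in its 9 libraries, and at 11.4 to 188 TPM in the 9 MH libraries. It also rose in Ken 38, and in Ken 40 by 2.27 ± 0.59, at that very low level, and the difference of its responses did not pass the test. Without replicate 3 of MH 38 the entries rose in MH 38 by 2.07, 2.01 and 1.81, against 1.74, 1.66 and 1.47 with it. Whether these L19 entries are separate gene copies or alleles was not tested.

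**Figure D3:**
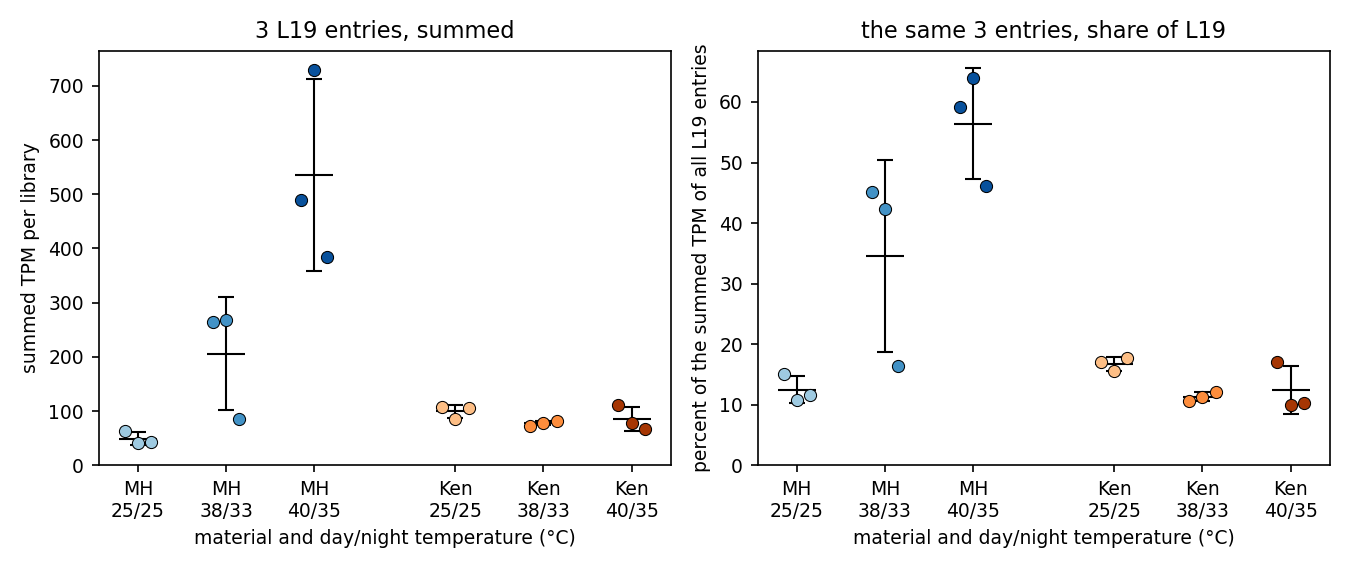
Summed TPM of the 3 L19 entries that rose in MH 40 (left) and their share of all L19 TPM in percent (right) in each of the 18 libraries (points), with group mean ± SD (n = 3), by material and temperature. The 3 entries reach 56.5 ± 9.16% of L19 in MH 40 and stay at 11.3 to 16.8% on average in the Ken groups.

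The step from 38/33 °C to 40/35 °C took the family in opposite directions in the 2 materials. In Ken 40 against Ken 38, 72 of 201 plant-named entries were higher and 13 lower, against 14.3% and 16.2% of all tested genes, with a median change of 0.29. In MH 40 against MH 38, 10 were higher and 104 lower, against 11.2% and 15.0% of all genes, with a median of -0.53. Stable calls were 63 higher and 8 lower in Ken and 10 higher and 71 lower in MH. Of described genes with at least 1000 counts 27.2% were higher in Ken 40 than in Ken 38, against 37.7% of the plant-named members of that depth, and 37.6% were lower in MH 40 than in MH 38, against 54.5% of the members. Without replicate 3 of MH 38, 10 plant-named entries were higher and 83 lower in MH.

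With the entries of each name summed, 33 of 79 names were higher and 1 lower in Ken 40 than in Ken 38, against 14.3% and 16.2% of all tested genes. In MH 40 against MH 38, 4 names were higher and 43 lower, against 11.2% and 15.0% of all genes. S15a (TRINITY_DN50769_c3_g1) is an example, with 35.7, 45.6 and 50.4 TPM in Ken 40 against 17.6, 19.4 and 18.7 TPM in Ken 38, and 15.4, 16 and 12.1 TPM in MH 40 against 38.2, 33 and 44.8 TPM in MH 38. The groups did not overlap in either material, and the changes were 1.36 ± 0.18 in Ken and -1.53 ± 0.18 in MH (adjusted p = 8.59e-06 and 3.97e-06, edgeR with Benjamini-Hochberg adjustment). L24, whose protein sits at a bridge between the subunits (TRINITY_DN44834_c1_g1), rose by 1.40 ± 0.17 in Ken 40 over Ken 38, and one L7 entry (TRINITY_DN41841_c0_g3) by 1.53 ± 0.22. That L7 entry fell by 0.98 in MH 40 against MH 38, and the fall of L24 by 0.71 there did not hold under all 4 scalings. Not every entry parted in this way. S5 (TRINITY_DN45601_c1_g1) was higher at 40/35 °C than at 38/33 °C in both materials, by 1.31 ± 0.15 in Ken and by 0.40 ± 0.15 in MH. The MH rise only just passed (adjusted p = 0.0498, edgeR with Benjamini-Hochberg adjustment).

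At 25 °C the family was lower in MH than in Ken. In MH control against Ken control 6 of 201 plant-named entries were higher and 101 lower, against 10.1% and 11.7% of all tested genes, and the median change was -0.57. Under all 4 scalings 6 were higher and 83 lower. Of described genes with at least 1000 counts 20.3% were lower, against 50.8% of the plant-named members of that depth. With the entries of each name summed, 50 of 79 names were lower in MH control and 0 higher, against the same 11.7% and 10.1% of all tested genes. The 40S and 60S entries shared the direction, with 41 of 72 and 60 of 129 lower.

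Among the named members the largest gap was at L18a-1 (TRINITY_DN56797_c0_g3), which had 0.93, 1.38 and 1.13 TPM in MH control against 52.2, 44.4 and 50.3 TPM in Ken control. It remained at 1.92 to 3.89 TPM in heated MH leaves and at 59.5 to 124 TPM in heated Ken leaves, and the control difference was -5.74 ± 0.25 (adjusted p = 4.06e-13, edgeR with Benjamini-Hochberg adjustment). Another L18a entry (TRINITY_DN50921_c1_g1) had 338, 313 and 317 TPM in MH control against 399, 314 and 385 TPM in Ken control and overlapped between them. The most abundant L36 entry in Ken (TRINITY_DN45481_c0_g3) had 147, 134 and 126 TPM in MH control against 700, 558 and 752 TPM in Ken control, with a difference of -2.30 ± 0.24, and a smaller L36 entry (TRINITY_DN42367_c2_g1) was also lower. The other abundant L36 entry (TRINITY_DN45481_c0_g1), looked up after the values were seen, had 117 ± 4.15 TPM in MH control and 146 ± 6.92 TPM in Ken control (SD, n = 3 each), a difference that did not pass the test. S15a-1 (TRINITY_DN47308_c0_g5) and S18 (TRINITY_DN43584_c1_g2) were lower by 2.21 and 2.17 on the log2 scale. Such gaps can include reads of 1 material fitting an assembled copy less well than those of the other, which was not tested.

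The few entries higher in MH control were copies within larger names. The abundant S27a entry (TRINITY_DN42680_c0_g2) averaged 2041 ± 231 TPM in MH control against 1048 ± 101 TPM in Ken control (SD, n = 3 each), a difference of 1.12 ± 0.30 (adjusted p = 0.0123, edgeR with Benjamini-Hochberg adjustment). S13-1 (TRINITY_DN51057_c1_g2) averaged 19.5 ± 4.34 TPM against 9.52 ± 1.27 TPM and was higher by 1.29 ± 0.28. One S15 entry (TRINITY_DN42791_c1_g1), one L37a entry (TRINITY_DN55738_c0_g1), a small S27a entry (TRINITY_DN60353_c1_g3) and the L19 entry TRINITY_DN61659_c2_g3 completed the list, by 0.68, 0.58, 1.06 and 3.71.

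The heat responses themselves differed between the materials for part of the family. At 38/33 °C the response of MH minus that of Ken was higher for 32 of 201 plant-named entries and lower for 3, against 6.07% and 4.78% of all tested genes, with a median of 0.39. All 35 calls held under the 4 scalings, which the 32 higher ones could hardly fail, as every other scaling moved this difference upwards. Of described genes with at least 1000 counts 11.9% were higher in this difference, against 16.2% of the members of that depth. Without replicate 3 of MH 38 the counts were 37 higher and 16 lower. L23 (TRINITY_DN45466_c0_g1) is an example, at 57, 68 and 64 TPM in MH 38 against 28.3, 23.8 and 28.2 TPM in MH control, and at 38.6, 39.4 and 44.7 TPM in Ken 38 against 80.8, 66.1 and 83.4 TPM in Ken control. It was above its controls in MH and below them in Ken, with a difference of 1.88 ± 0.25 (adjusted p = 4.41e-05, edgeR with Benjamini-Hochberg adjustment). L14 (TRINITY_DN43801_c2_g3), S9 (TRINITY_DN40109_c1_g5) and L24 (TRINITY_DN44834_c1_g1) had differences of 1.79, 1.66 and 1.55, as each fell in Ken 38 and did not pass the test in MH 38.

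At 40/35 °C the difference ran the other way, with 9 entries higher and 70 lower, against 10.3% and 11.1% of all tested genes, and a median of -0.54. Of the 70 lower calls only 27 held under all 4 scalings, while the 9 higher ones could hardly be lost. With library totals the median was -0.02. Of described genes with at least 1000 counts 30.5% were lower in this difference, against 36.6% of the members of that depth. The medians were -0.47 for these described genes and -0.58 for the members. Most of this lower response was thus not particular to the ribosomal proteins. S15a (TRINITY_DN50769_c3_g1) had the most negative difference among the named members, -2.33 ± 0.26, while S15a-1 (TRINITY_DN47308_c0_g5) had a positive one of 1.41 ± 0.44. For S27a (TRINITY_DN42680_c0_g2) it was -1.98 ± 0.43, for L34 (TRINITY_DN42261_c0_g5) -1.94 ± 0.37, and for S20 (TRINITY_DN61877_c2_g2) 1.45 ± 0.38. One L7 entry (TRINITY_DN41841_c0_g2) had 255, 385 and 428 TPM in MH 40 against 164, 136 and 139 TPM in MH control, and 160, 183 and 154 TPM in Ken 40 against 204, 189 and 188 TPM in Ken control. It rose in MH 40 and fell in Ken 40 on the TMM scale, and the difference was 1.21 ± 0.25 (adjusted p = 0.00123, edgeR with Benjamini-Hochberg adjustment). Its fall in Ken 40 did not hold under all 4 scalings.

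**Figure D4:**
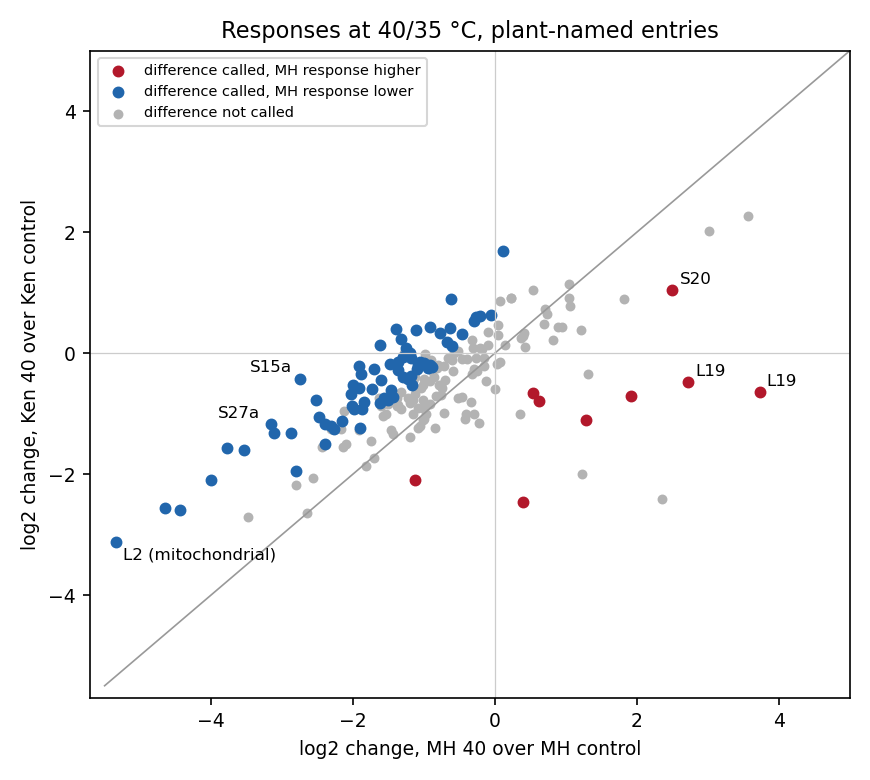
Response at 40/35 °C against control of each tested plant-named entry (log2 change, TMM), MH on the horizontal and Ken on the vertical axis, with the diagonal of equal responses and colours for entries whose responses differed. Most points lie below 0 on both axes, and the L19 entries TRINITY_DN56086_c1_g1 and TRINITY_DN62483_c0_g3 stand apart at 3.73 and 2.72 in MH.

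The balance of the subunits, described here without a test, was shifted in MH 38, MH 40 and Ken 38 libraries relative to their controls, in MH mainly through a single entry. The ratio of 40S to 60S TPM was 0.727 ± 0.024 in MH control, 0.627 ± 0.038 in MH 38 and 0.558 ± 0.013 in MH 40, and 0.670 ± 0.007, 0.729 ± 0.003 and 0.642 ± 0.023 in Ken control, Ken 38 and Ken 40 (SD, n = 3 each). Without the short, abundant S27a entry it was 0.543 ± 0.011, 0.540 ± 0.007 and 0.527 ± 0.007 in the MH groups and 0.602 ± 0.007, 0.649 ± 0.009 and 0.608 ± 0.017 in the Ken groups. Most of the lower MH ratio under heat was thus carried by that entry. In Ken all Ken 38 libraries were above all Ken control libraries with and without it, at 0.639 to 0.655 in Ken 38 and 0.594 to 0.608 in Ken control without it. By number of calls, 41 of 72 40S entries and 95 of 129 60S entries fell in MH 40, and 27 and 73 in Ken 40. The 67 most abundant tested entries, at 110 to 1357 TPM on average, had 11 that rose and 24 that fell in Ken 40, the middle 67 had 4 and 38, and the 67 least abundant had 5 and 38. In MH 40 the numbers in the same order were 9 and 38, 5 and 57, and 7 and 41, so the middle 67 had the most falls. The falls of the most abundant 67, at 56.7% in MH 40 and 35.8% in Ken 40, were near the shares of described genes too.

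Genes that make ribosomes or work with them were read from lists of description patterns. The counts of these lists stand against 42.7% of all tested genes higher and 24.6% lower in MH 40, and 25.1% and 20.7% in Ken 40. In these lists, too, a rise under TMM could hardly lose its call under the other scalings, so only falls are checked by them. RNA polymerase I, which transcribes the precursor of ribosomal RNA, had 7 of 10 tested genes higher in MH 40 and 4 in Ken 40. Each is a comparison with the own control, and the other RNA polymerase I genes did not pass the test. Its largest subunit (TRINITY_DN59517_c0_g2) had 24.9 ± 4.34 TPM in MH 40 against 1.91 ± 0.233 TPM in MH control, and 18.3 ± 1.37 TPM in Ken 40 against 3.81 ± 0.211 TPM in Ken control (SD, n = 3 each). Ribosome biogenesis factors split: of 79 tested, 27 rose and 26 fell in MH 40, and 16 rose and 22 fell in Ken 40. Of the falls, 7 in MH 40 and 8 in Ken 40 held under all 4 scalings. The biogenesis factors that rose were a smaller share than among all genes in both materials. In MH 40, however, they were a larger share than among described genes with at least 1000 counts. With library totals 60 biogenesis factors were higher and 7 lower in MH 40, and 33 and 8 in Ken 40. U3 small nucleolar RNA-associated protein 20, named from a palm match (TRINITY_DN64088_c1_g1), reached 48 ± 8.76 TPM in MH 40 against 5.48 ± 0.56 TPM in MH control, and ribosome production factor 1, named from a Xenopus match (TRINITY_DN62205_c2_g1), reached 74.7 ± 2.28 TPM in Ken 40 against 12.7 ± 2.68 TPM in Ken control. The non-overlapping biogenesis call with the smallest adjusted p in MH 40 was a fall, of an H/ACA ribonucleoprotein subunit 3-like protein (TRINITY_DN60088_c0_g1). It had 31 ± 3.43 TPM in MH 40 against 86.2 ± 3.34 TPM in MH control, a call that held under all 4 scalings. In MH control 37 of the 79 biogenesis factors were lower and 1 higher than in Ken control, the direction that the ribosomal proteins had there. Of all tested genes 11.7% were lower and 10.1% higher in that comparison. Of described genes with at least 1000 counts 20.3% were lower and 11.8% higher.

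Initiation factor 6-2, named from Arabidopsis (TRINITY_DN56693_c0_g2), which keeps the free 60S subunit from joining the 40S, fell to 13.3 ± 0.575 TPM in MH 40, against 77.6 ± 7.39 TPM in MH control, and to 26.4 ± 3.21 TPM in Ken 40, against 89 ± 8.96 TPM in Ken control (SD, n = 3 each). Of 104 tested initiation factors 15 rose and 53 fell in MH 40 and 27 rose and 30 fell in Ken 40. Of the falls, 15 in MH 40 and 17 in Ken 40 held under the 4 scalings. With library totals the balance of the initiation factor list in MH 40 turned to 60 higher and 15 lower, and in Ken 40 it was 47 and 17. Elongation and termination factors had 15 of 43 higher and 18 lower in MH 40, and 11 higher and 14 lower in Ken 40. Of the falls, 10 in MH 40 and 9 in Ken 40 held under all 4 scalings. With library totals these factors had 21 higher and 10 lower in MH 40, and 16 and 9 in Ken 40. Elongation factor 1-beta 1 (TRINITY_DN35508_c0_g2) fell by 2.18 and 1.11. Of 13 genes of the TOR kinase pathway 4 rose in Ken 40 and the others did not pass the test, and 4 rose and 2 fell in MH 40, where the falls did not hold under all 4 scalings. The S6 kinase entry (TRINITY_DN54248_c0_g2) averaged 104 ± 27 TPM in Ken 40 against 18.4 ± 1.07 TPM in Ken control. Of 28 cytosolic tRNA ligases 6 rose and 8 fell in MH 40 and 7 rose and 3 fell in Ken 40, and 1 of the falls in MH 40 held under all 4 scalings. With library totals 18 ligases were higher and 1 lower in MH 40, and 14 and 3 in Ken 40. RACK1, a scaffold on the 40S subunit, rose through 1 of its 2 tested entries (TRINITY_DN53113_c1_g5), to 38 ± 7.68 TPM in MH 40, against 3.91 ± 0.332 TPM in MH control.

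The proteins of the organelle ribosomes were mostly lower in the chloroplast list and mixed in the mitochondrial one. Of 58 tested chloroplast ribosomal proteins 50 fell in MH 40 and 48 in Ken 40, with medians of -3.70 and -1.85, and 45 and 42 of the falls held under all 4 scalings. Of 27 mitochondrial ribosomal proteins 15 fell and 4 rose in MH 40, and 12 fell and 2 rose in Ken 40, with medians of -0.85 and -0.37. Only 6 of the falls in MH 40 and 8 in Ken 40 held under all 4 scalings, and with library totals the medians were 0.16 and 0.10, with 9 higher and 6 lower in MH 40 and 5 and 8 in Ken 40. The mitochondrial list contains 4 entries that are also members, since their descriptions say both 60S and mitochondrial. All 4 fell in MH 40 with a median of -4.55, and 3 of 4 fell in Ken 40. L2 (TRINITY_DN51759_c0_g2) had 1.13, 0.5 and 0.6 TPM in MH 40 against 14.4, 14.9 and 14.5 TPM in MH control, and L6 (TRINITY_DN42418_c0_g3) had 2.03, 2.14 and 0.95 TPM against 22.8, 25.1 and 24.7 TPM. The libraries did not overlap in either, and the falls held under all 4 scalings.

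The 80 animal-named members, 46 of them best matched by cattle and 26 by human proteins, followed single libraries more than groups. Their summed counts were 1157, 1195 and 4486 in Ken 40, 80, 681 and 694 in Ken 38, and 209, 751 and 106 in Ken control. In MH they were 53, 132 and 139 at 40/35 °C, 8, 31 and 772 at 38/33 °C, and 701, 633 and 7 in control leaves. Libraries of the same group thus stood far apart, and the entries with any count ranged from 4 to 80 of 80 between libraries. In all they made up at most 0.0283% of a library.

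With that spread, 7 of 53 tested animal-named entries were higher in Ken 40 and 23 lower in MH 40, each against its own control. Of all tested genes 25.1% were higher in Ken 40 and 24.6% lower in MH 40. In Ken 40 against Ken 38, 5 animal-named entries were higher, against 14.3% of all genes. In the difference of responses at 40/35 °C 29 were lower, against 11.1% of all genes. Without replicate 3 of Ken 40 the calls of both Ken comparisons were lost and 3 were left in the difference, and without replicate 3 of MH 38, 31 were lower in MH 38. Leaving out each library in turn, 0 to 22 were higher in Ken 40 and 0 to 6 in Ken 40 against Ken 38. The falls in MH 40 numbered 34 without replicate 3 of MH control and 2 to 6 without any other MH control or MH 40 library. In the difference 3 to 44 were lower. Of 8 entries matching the animal marker list 3 had an animal match, a human and a mouse hemoglobin and a fluke tropomyosin, and the other 5 matched plant proteins. The 3 summed to 51.1, 2.01 and 8.02 TPM in Ken control and to at most 8.07 TPM in every other group, so the library with the most hemoglobin was not the one with the most animal-named ribosomal protein. The part of foreign RNA in these values was not tested. Both tested fungus-named entries were called in MH 40, L10 (TRINITY_DN32359_c0_g1) higher at 3.24 ± 4.2 TPM against 0.0567 ± 0.0981 TPM in MH control (SD, n = 3 each) and L11 lower. The fungus-named entries had 34 to 406 counts per library, and 2 hydrophobin entries, markers of fungi, were at 0 in all Ken 38, MH 38 and MH control libraries and reached 20.5 TPM in a Ken 40 library.

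**Figure D5:**
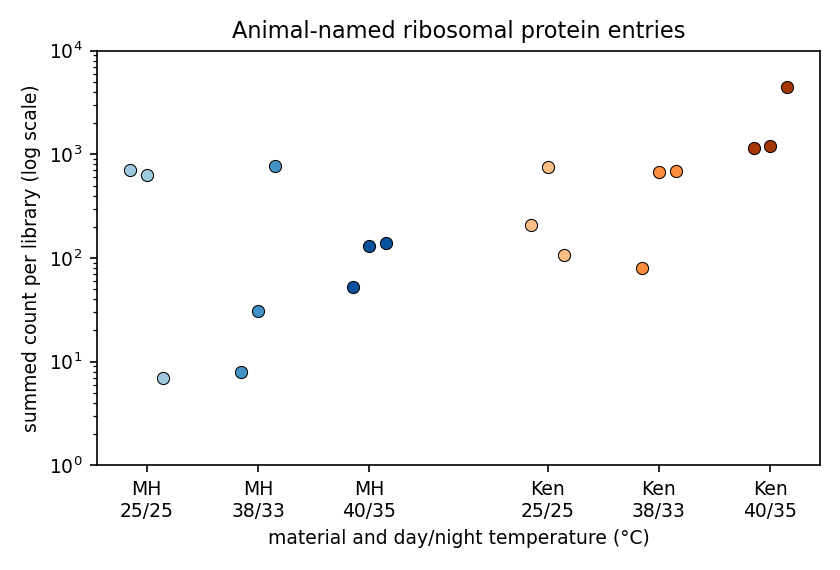
Summed counts of the 80 animal-named entries in each of the 18 libraries (log axis) by material and temperature. Replicate 3 of Ken 40 holds 4486 counts and replicate 3 of MH control holds 7.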

How the data were processed

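The table was made by the authors from leaf RNA (Trizol extraction and Illumina libraries per the labels), with adapters trimmed by cutadapt 1.9 per the submitters' processing notes. No label or file header names the assembler or quantifier. The deposited table gives, as made by the authors, an expected count per assembled gene and library that was not normalised, and TPM, scaled by the authors for length and library.

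Estimated counts were rounded and tested in edgeR 4.0.16 (R 4.3.3): filterByExpr (min.count 10, min.total.count 15), TMM, 1 robust quasi-likelihood model of 6 group means (12 residual degrees of freedom, common biological coefficient of variation 0.389), Benjamini-Hochberg adjustment over 70022 genes and an adjusted p threshold of 0.05. The pipeline was tested on simulated data. Summaries used Python 3.11.15 with pandas 2.3.3, and figures matplotlib 3.10.9.

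The members and lists were chosen with earlier results of these data known, so no p-value is given for a set. Named members are the 10 with the highest mean TPM, up to 5 largest calls per direction and comparison whose libraries did not overlap and whose higher group averaged at least 10 TPM, the leading entries of P0, P1, P2, P3, S6, L10, L40 and S27a, and, in each list, the 2 non-overlapping calls with the smallest adjusted p at 40/35 °C. Only part of these list calls is printed. Alternatives were DESeq2 1.42.0, 4 scalings, other filters, models of the groups compared, a replicate block, each library left out, and entries summed by name; calls under all 4 scalings, and names with entries in both directions, were added after seeing the data. Replicate numbers did not pair libraries and were not used.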

Additional observations from a re-analysis of the deposited data

Results flagged for a closer look

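The following members responded to heat differently in the 2 materials, by an edgeR test of the difference itself with Benjamini-Hochberg adjustment over all tested genes. All values are the log2 response of MH minus that of Ken.

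At 38/33 °C the difference was 1.66 for S9 (TRINITY_DN40109_c1_g5), 1.79 for L14 (TRINITY_DN43801_c2_g3) and 1.88 for the L23 entry TRINITY_DN45466_c0_g1. It was -1.30 for L34 (TRINITY_DN42261_c0_g4), -1.03 for S14 (TRINITY_DN45330_c0_g3) and -1.05 for L31 (TRINITY_DN46923_c0_g1), a protein at the rim of the peptide tunnel. The L34 entry had 184, 180 and 387 TPM in MH 38 against 192, 206 and 203 TPM in MH control, and 1122, 984 and 986 TPM in Ken 38 against 394, 333 and 406 TPM in Ken control. Heated and control libraries of L34 overlapped in MH and stood apart in Ken. The L19 entries TRINITY_DN56086_c1_g1 and TRINITY_DN62483_c0_g3 had differences of 2.56 and 2.36.

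At 40/35 °C the same L19 entries had differences of 4.38 and 3.20. S20 (TRINITY_DN61877_c2_g2) had 1.45, L7 (TRINITY_DN41841_c0_g2) 1.21 and S15a-1 (TRINITY_DN47308_c0_g5) 1.41. Negative differences were -2.33 for S15a (TRINITY_DN50769_c3_g1), -1.98 for S27a (TRINITY_DN42680_c0_g2), -1.94 for L34 (TRINITY_DN42261_c0_g5), and -2.22 and -2.09 for the mitochondrial-labelled L2 (TRINITY_DN51759_c0_g2) and L6 (TRINITY_DN42418_c0_g3).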

How the results depend on the processing

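Counts here cover all 256 tested members, animal-named ones included, as higher and then lower. With library totals as the scaling they were 32 and 64 in Ken 38 (11 and 133 under TMM), 72 and 48 in Ken 40 (27 and 101), 91 and 16 in MH 38 (20 and 91), and 68 and 61 in MH 40 (22 and 160), each against its own control. The differences of responses had 68 higher at 38/33 °C (32), and 24 higher and 50 lower at 40/35 °C (9 and 99). With TMM of described genes Ken 38, Ken 40, MH 38 and MH 40 had 20, 46, 42 and 46 higher, MH 38 had 53 lower, MH 40 against MH 38 had 20 higher (11), and the difference at 40/35 °C had 17 and 63. Under all 4 scalings 64, 48, 16 and 61 were lower in the 4 heat comparisons, 9 in Ken 40 against Ken 38 (14), and 50 in the difference at 40/35 °C. Relative log expression gave 42 higher in Ken 40, 9 lower in Ken 40 against Ken 38 and 18 higher in MH 40 against MH 38. DESeq2 gave 41 higher in Ken 40, 20 higher in MH 40 against MH 38 and 53 higher in the difference at 38/33 °C. With no filter on low counts 63 were higher in Ken 40 and 6 lower in the difference at 38/33 °C, and with a minimum count of 50 the difference at 40/35 °C had 61 lower.

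With only the groups compared in the model, Ken 38 had 20 higher, Ken 40 had 69 higher, MH 38 had 58 lower, Ken 40 against Ken 38 had 132 and 25 (77 and 14), MH 40 against MH 38 had 3 and 63 (11 and 104), and MH control against Ken control had 11 higher (6). With 1 summed entry per name, which leaves fewer entries to test, the counts were 2 and 53 in Ken 38, 11 and 36 in Ken 40, 4 and 39 in MH 38, 9 and 56 in MH 40, 33 and 1 in Ken 40 against Ken 38, 4 and 43 in MH 40 against MH 38, 0 and 50 in MH control against Ken control, 11 higher at 38/33 °C, and 2 and 31 at 40/35 °C in the differences. The summed level as a share of counts was 1.09 (0.998 in TPM) in Ken 38, 1.46 (1.24) in MH 38 and 1.41 (1.03) in MH 40 times that of the control.

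With library totals the direction turned for P0, S27a (TRINITY_DN53764_c1_g1) and S6 in Ken 38 (0.05, 0.08 and 0.05), for P3, L30, S3, L18a and S6 in MH 38 (0.10, 0.16, 0.02, 0.33 and 0.33), and for P3, L18a and S6 in MH 40 (0.23, 0.40 and 0.04). Beyond the scaling itself, the cause of these shifts was not tested.

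Leaving out each library in turn gave, as higher and lower, 5 to 10 and 115 to 134 in Ken 38, 17 to 37 and 78 to 100 in Ken 40, 11 to 20 and 67 to 153 in MH 38, and 18 to 27 and 136 to 172 in MH 40. The 11 higher in Ken 38 were 7 without Ken 38 replicate 2 or Ken control replicate 3 and 5 without Ken control replicate 2, the 27 in Ken 40 were 17 without Ken 40 replicate 3, and the 20 in MH 38 were 11 and 12 without MH control replicates 2 and 3. Without MH 38 replicate 3, 153 were lower in MH 38 (91) and 21 in the difference at 38/33 °C (3). It gave 48 to 72 and 5 to 10 in Ken 40 against Ken 38, 5 to 13 and 83 to 113 in MH 40 against MH 38, 2 to 5 and 71 to 99 in MH control against Ken control, 17 to 37 and 0 to 21 in the difference at 38/33 °C, and 7 to 11 and 61 to 105 at 40/35 °C. The summed ratios stayed within 0.952 to 1.03 in Ken 38, 1.11 to 1.21 in Ken 40, 1.11 to 1.31 in MH 38, 0.971 to 1.11 in MH 40, 1.14 to 1.21 in Ken 40 over Ken 38, 0.785 to 0.926 in MH 40 over MH 38, and 0.705 to 0.761 in MH control over Ken control. The replicate numbers did not pair the libraries (r from -0.107 to 0.079), and with a replicate block 133 members were lower in Ken 38 and 162 in MH 40.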
